A study of Mus musculus with 6 samples.

Results

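The cytosolic ribosome makes protein from mRNA, and its large and small subunits are built from ribosomal RNA and a set of ribosomal proteins, most of them present once in each ribosome. The genes of these proteins are among the most highly transcribed in liver, and their mRNAs typically begin with a run of cytosine and thymine or uracil bases, the terminal oligopyrimidine (TOP) tract. Insulin is known to act on these mRNAs through the kinase complex mTORC1, which controls their translation through the TOP-binding protein LARP1 and the eIF4E-binding proteins, so that their translation and their mRNA level need not move together. The arrays described here measured mRNA levels alone.

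Of the 8251 genes that a probe set of the array reads with a single gene symbol, 35 were cytosolic ribosomal protein genes by their symbol (beginning in Rpl, Rps or Rplp and a number, or Rpsa, without the *Rps6k* kinases and without pseudogenes named as such). They comprised 14 genes of the large subunit, 16 of the small subunit, the stalk gene *Rplp0*, and 4 related genes that encode or resemble copies of these proteins, *Rpl39l*, *Rpl7l1*, *Rps27l* and *Rps4l*. RefSeq lists *Rps4l* as a transcribed pseudogene. The 35 genes were read by 49 probe sets, and for each gene the probe set with the highest mean over the 6 arrays was taken. A further 39 probe sets list a ribosomal protein symbol among several symbols, and 33 ribosomal protein genes, *Rps6* and *Rplp1* among them, were read only by those and are not members here. Probe sets of ribosomal protein genes may also pick up their processed pseudogenes, which are numerous in mammals, so that a level is that of all transcripts the probes match.

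Liver RNA came from non-fasted male mice aged 2 to 3 months on chow. The LIRKO mice (IR flox/flox albumin:CRE +) and their Flox littermates (IR flox/flox albumin:CRE -) are both homozygous for a floxed insulin receptor gene (*Insr*), on a mixed background of 129/sv, C57BL/6, FVB and DBA. In LIRKO, Cre recombinase under the albumin promoter, which is active in hepatocytes, deletes the receptor there, and other liver cells keep it. There were 3 LIRKO and 3 Flox arrays, each with pooled RNA of 2 to 3 mice, and replicate error is therefore the error between such pools. Values are on the log2 scale, where a difference of 1 is a doubling, and the small number of arrays limits their precision.

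The 6 arrays were not alike. LIRKO 2 and LIRKO 3 had a narrower range of values than the rest, with a standard deviation over all 12422 probe sets of 1.72 and 1.78, against 2.00 on LIRKO 1 and between 1.96 and 2.01 on the Flox arrays, while the array medians lay between 6.58 and 6.63. On LIRKO 2 and LIRKO 3, high values read lower and low values read somewhat higher than on Flox, a shift that the ribosomal protein genes share with other bright genes. Control transcripts added at hybridization read 1.08 and 0.962 higher on these arrays at the median, and their part in the shift was not tested. The summaries of the members are therefore also given for LIRKO 1 alone and against probe sets of similar level, while single genes are given by their values on every array. The sources used here do not say whether RMA (robust multichip averaging) was run on the arrays together. *Insr* itself read 5.37, 5.99 and 6.06 on LIRKO 1, LIRKO 2 and LIRKO 3, against 5.45, 5.22 and 5.38 on Flox 1, Flox 2 and Flox 3 (adjusted p = 0.245 from limma), and as the position of its probes relative to the deleted part is not known here, it does not check the labels. Hepatocyte markers were bright, with albumin (*Alb*) between 14.00 and 14.17 on LIRKO and between 14.18 and 14.25 on Flox. Albumin does not stand for the list. The 13 measured markers had median differences from the Flox mean of 0.03, -0.92 and -0.93 on LIRKO 1, LIRKO 2 and LIRKO 3, with 7, 1 and 2 above it.

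No cytosolic ribosomal protein gene passed the test between LIRKO and Flox livers. With limma and Benjamini-Hochberg adjustment over all 12422 probe sets, 0 of 35 had an adjusted p under 0.05, where 0.0725% of all probe sets were called higher and 0.0564% were called lower in LIRKO. The members' adjusted p ran from 0.237 to 0.776. At an unadjusted p under 0.05, 2 members were higher (*Rpl22* and *Rpl35a*) and 1 was lower (*Rps4l*), whereas 7.43% of all probe sets were higher and 13.5% were lower at this level. The unequal variance t-test that the study's methods name for its other data gave 0 of 35 before and after adjustment. After adjustment it called 0 of all 12422 probe sets too, so that this 0 is no result about the members. Its unadjusted share over all probe sets is not given here. The members' median log2 fold change, LIRKO minus Flox, was -0.43, with 25 genes below 0 and 10 above, beside 0.01 over all probe sets, but it was -0.16 after quantile normalization and 0.023 after cyclic loess between the arrays. In whole liver, fewer cells of a type and less RNA per cell cannot be told apart.

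LIRKO 1 decided this count of 0. Without it, 20 members were lower and 7 were higher at an adjusted p under 0.05 by limma, where 26.7% of all probe sets were called lower and 22.4% were called higher, and the members' median was -0.76. With array weights estimated by limma, which gave LIRKO 1 the least weight, 22 were lower and 8 were higher, where 35.5% and 34.5% of all probe sets were called. The weights were 0.0885, 0.275 and 10.7 for LIRKO 1, LIRKO 2 and LIRKO 3, so that the LIRKO side of this fit rests mostly on LIRKO 3. The 7 that were higher without LIRKO 1 were *Rpl22*, *Rpl32*, *Rpl35a*, *Rpl38*, *Rps13*, *Rps14* and *Rps29*. The 8 that did not pass without LIRKO 1 were *Rpl39*, *Rpl39l*, *Rpl7l1*, *Rps15*, *Rps20*, *Rps24*, *Rps27* and *Rps27l*.

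**Figure D1:**
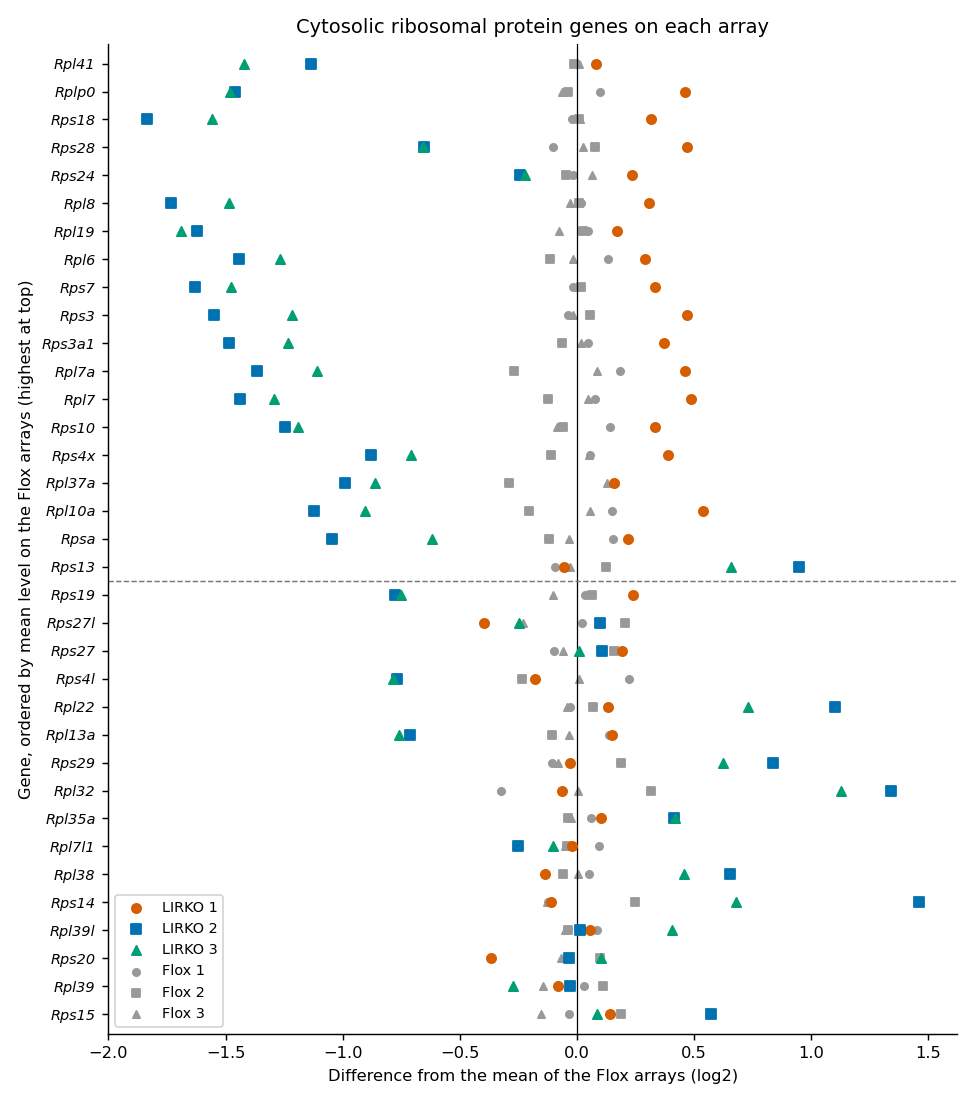
Difference of each of the 35 genes from its Flox mean (log2, horizontal axis) on each array, with genes ordered by their Flox mean (highest at the top) and a dashed line below the 19 genes in the brightest 10% of all probe sets. Among these, 18 of 19 genes lay above the Flox mean on LIRKO 1 and 18 of 19 lay below every Flox array on LIRKO 2 and on LIRKO 3, whereas below the line the LIRKO arrays lie on both sides of 0.

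The LIRKO arrays disagreed in a way that the members shared. On LIRKO 1 the median member lay 0.17 above the Flox mean, and 25 of 35 members lay above it. On LIRKO 2 and LIRKO 3 the median member lay at -0.77 and -0.71, with 24 of 35 below the Flox mean on each. The medians of the Flox arrays themselves were 0.03, -0.01 and -0.03. The 0.17 on LIRKO 1 stayed between 0.16 and 0.17 under quantile normalization, cyclic loess and centring on the array medians, and it lies outside the spread of the Flox medians (SD 0.03). Each Flox array is part of the mean it is set against, which narrows that spread, and a single LIRKO array allows no test. On this array the 11 measured Kupffer cell markers also lay above the Flox mean (median 0.41), and their part in the members' values was not tested.

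Counted gene by gene, 22 of 35 members lay above all 3 Flox arrays on LIRKO 1, where 24.7% of all probe sets did so. Below all 3 Flox arrays there were 22 members on LIRKO 2 and 24 on LIRKO 3, where 40.8% and 41.8% of all probe sets were. Both held at once, above on LIRKO 1 and below on LIRKO 2 and LIRKO 3, for 19 members (54.3%), where 7.41% of all probe sets showed this order. The count on LIRKO 1 and this order were added after the data were seen, on the same arrays. Genes read on the same array are not replicates, so that the counts describe these arrays and test nothing. The count of 19 was 16 after quantile normalization, 11 after cyclic loess and 18 after median centring, where 6.67%, 6.40% and 6.62% of all probe sets showed it. By contrast, 0 members had all LIRKO arrays below all Flox arrays and 2 (*Rpl22* and *Rpl35a*) had all above, where 14.9% and 9.84% of all probe sets did so.

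The order depended on level. Of the 35 members, 19 were among the brightest 10% of all probe sets, with Flox means of 9.26 to 13.17. Among them the members' medians were 0.33, -1.37 and -1.22 on LIRKO 1, LIRKO 2 and LIRKO 3, whereas the other 1222 probe sets of that 10% had medians of -0.02, -1.08 and -0.89. Those 1222 still include 24 probe sets that list a ribosomal protein symbol among several. On LIRKO 1, 17 of the 19 lay above the upper quartile of those others, 0.13, and 17 lay above all 3 Flox arrays, where 29.1% of the others did. The order described above was shown by 17 of the 19 (89.5%) and by 22.9% of the others. The exceptions were *Rpl37a*, which read 10.85 on LIRKO 1 and 10.85 on Flox 1, and *Rps13*, whose LIRKO arrays moved the other way. The 16 dimmer members had medians of -0.02, 0.10 and 0.09, and of these only *Rpl13a* and *Rps19* showed the order.

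**Figure D2:**
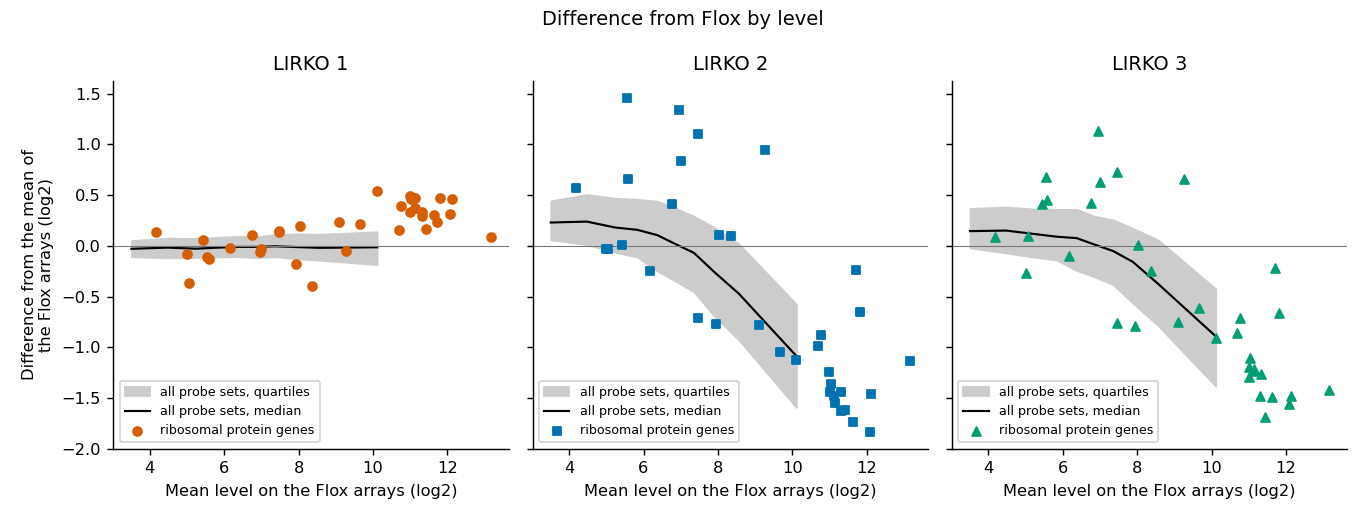
Difference from the Flox mean (log2, vertical axis) against the Flox mean (log2, horizontal axis) on LIRKO 1, LIRKO 2 and LIRKO 3, with the 35 genes as points and, for 10 equal groups of all probe sets by Flox mean, the median as a line and the range between the quartiles as a band drawn at each group's median level. On LIRKO 1 the line stays within 0.03 of 0 and most bright members lie above the band, with *Rpl41* (0.08) and *Rps13* (-0.06) within it. On LIRKO 2 and LIRKO 3 most bright members lie low, as the line does where it ends at the median level of the brightest group, 10.11, but *Rps13* (0.95 and 0.66) and *Rps24* (-0.24 and -0.22) do not.

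Each member was also set against the 200 other probe sets nearest in Flox mean, to reduce the shift that goes with level. The brightest members, such as *Rpl41* (percentile 99.8 of Flox level), have mostly dimmer neighbours, so that part of the shift may remain. On this measure LIRKO 1 had a median excess of 0.18 over the members (26 of 35 above), LIRKO 2 of 0.10 (21 of 35) and LIRKO 3 of 0.062 (21 of 35). The same measure was 0.01, 0.02 and -0.03 on Flox 1, Flox 2 and Flox 3. For the mean of the 3 LIRKO arrays this was 0.13, with 26 of 35 members above their neighbours. Without LIRKO 1 it was 0.044, and with 500 neighbours in place of 200 it was 0.069. For the 19 brightest members LIRKO 1 had an excess of 0.34, LIRKO 2 of 0.077 and LIRKO 3 of 0.055, so that LIRKO 1 was the array on which they stood apart from genes of their level, and on LIRKO 2 and LIRKO 3 they lay near them. The 16 dimmer members had medians of 0.0004, 0.32 and 0.11 on LIRKO 1, LIRKO 2 and LIRKO 3, with 8, 9 and 10 above their neighbours.

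**Figure D3:**
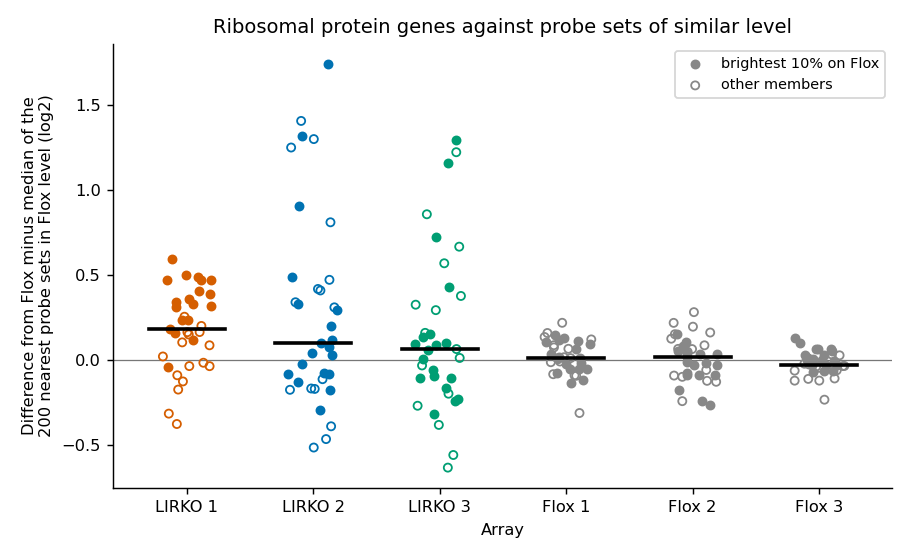
Difference from the Flox mean minus the median difference of the 200 other probe sets nearest in Flox mean (log2, vertical axis) for the 35 genes on each of the 6 arrays, with filled points for members in the brightest 10% on Flox, open points for other members and bars for medians. The median bar lies at 0.18 on LIRKO 1, and on LIRKO 2 and LIRKO 3 a few genes reach above 1 while the bars lie at 0.10 and 0.062.

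*Rplp0*, the base of the stalk that the elongation factors contact and, as 36B4, a reference gene of the study's cell culture work, showed the order in full. It read 12.59, 10.67 and 10.65 on LIRKO 1, LIRKO 2 and LIRKO 3, against 12.23, 12.09 and 12.06 on Flox 1, Flox 2 and Flox 3. LIRKO 1 was the highest of the 6 arrays and the other LIRKO arrays were the lowest. The log2 fold change was -0.83 (SE 0.50, adjusted p = 0.33 from limma), and against probes of its own level *Rplp0* was at 0.47, 0.08 and -0.17. *Rplp1* and *Rplp2*, which form the rest of the stalk, were not read as single genes.

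Among the large subunit genes, the median log2 fold change was -0.53, with 10 of 14 below 0, and the array medians were 0.15, -1.06 and -0.88 on LIRKO 1, LIRKO 2 and LIRKO 3. On LIRKO 1, 11 of the 14 lay above the Flox mean. *Rpl19*, with the lowest log2 fold change of the members, read 11.60, 9.81 and 9.74 on the LIRKO arrays, against 11.48, 11.46 and 11.36 on the Flox arrays (-1.05, SE 0.48, adjusted p = 0.25 from limma). *Rpl8* read 11.94, 9.90 and 10.14, against 11.65, 11.64 and 11.60 on Flox (-0.97). In both, the Flox arrays lay close together (SD 0.07 for *Rpl19* and 0.02 for *Rpl8*) while the LIRKO arrays were spread (SD 1.05 and 1.11), with LIRKO 1 at the top. *Rpl10a*, whose tagged protein is used in mice to pull down ribosomes of chosen cells, was the highest member on LIRKO 1 relative to Flox, at 0.54, with readings of 10.64, 8.98 and 9.20, against 10.25, 9.90 and 10.16 on Flox (-0.50). *Rpl7* (11.49, 9.57 and 9.71, against 11.08, 10.88 and 11.05) and *Rpl7a* (11.50, 9.67 and 9.92, against 11.22, 10.76 and 11.12) were at 0.49 and 0.46 on LIRKO 1. The other, dimmer probe set of *Rpl7* lay at 0.002 on LIRKO 1, with a log2 fold change of 0.14. These genes were named for their low log2 fold change or their high value on LIRKO 1, so that the order of their arrays follows from the choice.

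Other large subunit genes were dimmer. Of these, *Rpl32*, *Rpl22*, *Rpl35a* and *Rpl38* ran the other way on LIRKO 2 and LIRKO 3, whereas *Rpl13a* and *Rpl39* did not. *Rpl32* had the highest log2 fold change of the members, 0.80 (SE 0.38, adjusted p = 0.25 from limma), and read 6.89, 8.29 and 8.08 on LIRKO, against 6.63, 7.27 and 6.96 on Flox. Here LIRKO 2 and LIRKO 3 lay above all Flox arrays and LIRKO 1 lay among them. *Rpl22*, which is dispensable for most tissues of the mouse but needed for alpha-beta T cell development, read 7.60, 8.57 and 8.20, against 7.44, 7.54 and 7.43 on Flox (0.66, adjusted p = 0.24 from limma), so that its groups did not overlap. The same was true of *Rpl35a*, at 6.86, 7.17 and 7.18, against 6.82, 6.72 and 6.73 (0.31). *Rpl38*, which in the mouse is needed for translation of Hox mRNAs, read 5.45, 6.24 and 6.04, against 5.64, 5.52 and 5.59 on Flox (0.33). *Rpl13a*, in human cells also part of a complex that silences inflammatory mRNAs, was lower on LIRKO 2 and LIRKO 3 than its level would give, at 7.62, 6.76 and 6.71, against 7.61, 7.36 and 7.44 on Flox, with a mean of -0.33 relative to its neighbours. *Rpl39*, at 4.92, 4.97 and 4.73, against 5.03, 5.11 and 4.86 on Flox, was among the dimmest members and showed overlapping groups.

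The small subunit genes had a median log2 fold change of -0.34, with 11 of 16 below 0, and array medians of 0.24, -0.71 and -0.64, and 12 of the 16 lay above the Flox mean on LIRKO 1. Whether the subunits differ was not tested. *Rps18* read 12.40, 10.24 and 10.52 on LIRKO, against 12.06, 12.09 and 12.09 on Flox (-1.03, SE 0.53, adjusted p = 0.27 from limma), and *Rps7* read 11.65, 9.69 and 9.84, against 11.30, 11.33 and 11.31 (-0.92). *Rps3*, which lines the path by which mRNA enters the ribosome and also takes part in DNA repair, read 11.61, 9.59 and 9.92, against 11.10, 11.19 and 11.12 on Flox (-0.76). The SD between LIRKO arrays was 1.17, 1.09 and 1.08 for these genes, beside 0.02, 0.02 and 0.05 between Flox arrays, and LIRKO 1 was the highest array for each. *Rps18* and *Rps7* were named for their low log2 fold change and *Rps3* for its high value on LIRKO 1. The spread and order of their arrays thus follow in part from the choice. *Rpsa*, the laminin receptor precursor that is also a protein of the small subunit, read 9.88, 8.61 and 9.04, against 9.81, 9.54 and 9.62 (-0.48), and on LIRKO 1 it stood just above the highest Flox array.

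The probe sets taken for the bright small subunit genes *Rps24* and *Rps28* read less far below Flox on LIRKO 2 and LIRKO 3. *Rps24*, mutated in some patients with Diamond-Blackfan anaemia, read 11.95, 11.47 and 11.50 on LIRKO, against 11.70, 11.67 and 11.78 on Flox (-0.07), and *Rps28* read 12.28, 11.16 and 11.15, against 11.71, 11.89 and 11.84 (-0.28). Relative to probe sets of their own level they were at 0.88 and 0.68 for the mean of the LIRKO arrays, and their log2 fold changes turned to 0.56 and 0.37 under quantile normalization. Another bright probe set of *Rps28* (Flox mean 11.61) had differences from the Flox mean of 0.45, -1.23 and -1.46 on LIRKO 1, LIRKO 2 and LIRKO 3 (log2 fold change -0.74) and of 0.46, 0.32 and -0.09 relative to probe sets of its level. The dimmest probe set of *Rps28* (Flox mean 7.89) had differences of -0.34, 0.16 and -0.39 on these arrays (log2 fold change -0.19). *Rps4x* read 11.16, 9.89 and 10.06, against 10.82, 10.66 and 10.82 (-0.40), and likewise turned to 0.15 under quantile normalization. *Rps13* was the member highest above its neighbours, at 1.00 for the mean of the 3 arrays, with 9.21, 10.21 and 9.92 on LIRKO, against 9.17, 9.39 and 9.23 on Flox (0.52). It lay within the Flox range on LIRKO 1 and was the only bright member above Flox on LIRKO 2 and LIRKO 3. The 3 members highest above their neighbours, *Rps13*, *Rps24* and *Rpl32*, were each read by a probe set with the suffix _r_at rather than a plain _at. The other probe set of *Rps24*, a plain _at, was dim (Flox mean 5.73). It had differences from the Flox mean of -0.16, 0.58 and 0.30 on LIRKO 1, LIRKO 2 and LIRKO 3 (log2 fold change 0.24).

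Of the dimmer small subunit genes, *Rps14*, whose reduced dose in people underlies the anaemia of the 5q- syndrome, read 5.43, 7.0 and 6.22 on LIRKO, against 5.42, 5.79 and 5.41 on Flox (0.68, adjusted p = 0.30 from limma), and *Rps29* read 6.97, 7.84 and 7.62, against 6.89, 7.18 and 6.92 (0.48). For both, LIRKO 2 and LIRKO 3 were the highest arrays and LIRKO 1 lay within the Flox range. *Rps20*, at 4.69, 5.02 and 5.15, against 5.02, 5.15 and 4.98 on Flox (-0.10), was the second lowest member on LIRKO 1, at -0.37. Of the members not described singly, *Rpl6*, *Rpl41*, *Rps3a1*, *Rps10* and *Rpl37a*, all bright, had log2 fold changes of -0.81, -0.82, -0.78, -0.70 and -0.56, *Rps19* was at -0.43, and the dimmer *Rps27* and *Rps15* were at 0.10 and 0.27.

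Of the 4 related genes, 1 lay above the Flox mean on LIRKO 1 and their median was -0.10. All 4 were dim, with Flox means of 5.43 to 8.36, and the 16 members outside the brightest 10%, to which they belong, had 7 above and a median of -0.02. Whether the related genes differ from other dim members was not tested. *Rps4l* had the lowest p of the members that read lower and read 7.76, 7.17 and 7.15 on LIRKO, against 8.16, 7.70 and 7.95 on Flox (-0.58, SE 0.21, adjusted p = 0.24 from limma), with LIRKO 1 inside the Flox range and the other LIRKO arrays below it. Its other probe set, a dimmer plain _at (Flox mean 5.72), had differences from the Flox mean of 0.13, 0.05 and 0.05 on LIRKO 1, LIRKO 2 and LIRKO 3 (log2 fold change 0.07). The lower reading of *Rps4l* thus holds for its brighter probe set alone. *Rps27l*, a target of p53, was the lowest member on LIRKO 1, at -0.40, and read 7.96, 8.46 and 8.11, against 8.38, 8.57 and 8.13 (-0.18). *Rpl7l1*, a nucleolar relative of *Rpl7* (6.14, 5.92 and 6.06, against 6.26, 6.12 and 6.11 on Flox), and *Rpl39l*, known mainly from testis (5.49, 5.44 and 5.84, against 5.52, 5.40 and 5.38), had log2 fold changes of -0.12 and 0.16 with overlapping groups. Without the 4, the median on LIRKO 1 was 0.22 over 31 genes.

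Genes read by several probe sets showed how far a value depends on the probes. There were 10 such genes with 24 probe sets. In 8 of the 10, the brightest probe set had a lower log2 fold change than the dimmest, and in 6 the probe sets disagreed in sign. For *Rpl19*, the brighter probe set gave -1.05 and the dimmer gave 0.44, with readings of 8.15, 8.47 and 8.75 on LIRKO, against 7.97, 8.05 and 8.04 on Flox. The probe sets therefore agreed that LIRKO 1 lay above all Flox arrays and disagreed on LIRKO 2 and LIRKO 3. The 5 probe sets of *Rps4x* ran from -0.40 for the brightest to 0.73 for the dimmest. Those of *Rpl22*, which are nearly equal in Flox level (7.47 and 7.39), gave 0.66 and -0.08, and the second read 7.89, 6.87 and 7.15 on LIRKO, against 7.38, 7.39 and 7.39, which is the order of the bright members. The absence of overlap for *Rpl22* thus holds for one of its probe sets alone.

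**Figure D4:**
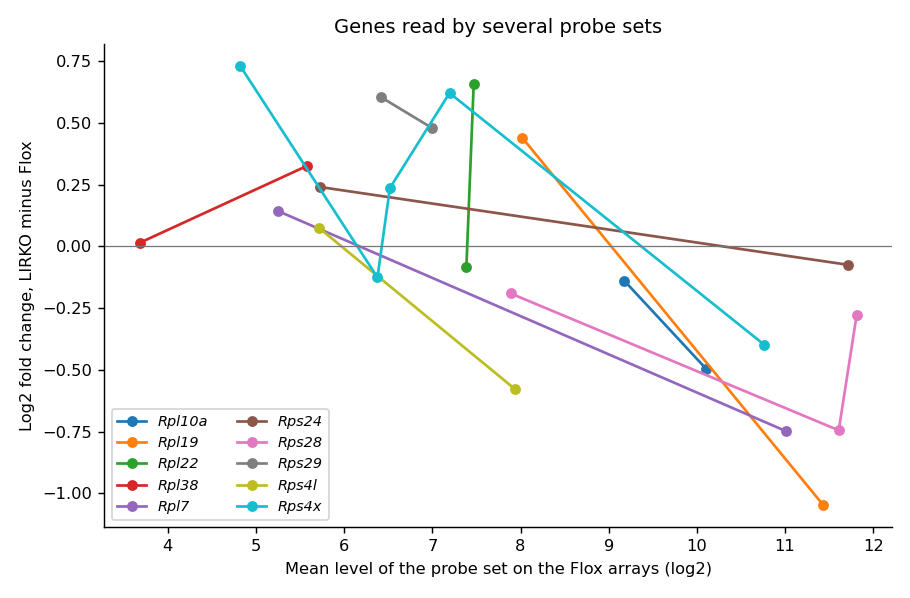
Log2 fold change, LIRKO minus Flox (vertical axis), against mean Flox level (log2, horizontal axis) for the 24 probe sets of the 10 genes with several, joined by gene. Most lines run down to the right, and the values of *Rpl19* and *Rps4x* span over 1.

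The sequence around the annotated start sites was examined because the TOP tract is the feature that these mRNAs are known for. RefSeq promoter sequence of GRCm38.p6, from 250 bases before to 50 bases after each start, was found for 28 of the 35 members (37 windows). A run of at least 8 C or T bases within 50 bases of the start was present for 20 of 28 (71.4%), beside 39.3% of 27025 genes with sequence. The windows below, of 30 bases around the longest C or T run near the start, of any length, are written 5′ to 3′ on the transcribed strand with that run in capitals. They are those of the 8 members with the lowest log2 fold changes among members with sequence, in that order, followed by the members with the longest runs, *Rpl7a* and *Rps24*. Where a gene has several starts, that with the longest run is shown.
Rpl19 (chr11:98026944-98026973, plus strand): gcggcccacaagCTCTTTCCTTTCgctgct
Rps18 (chr17:33955648-33955677, minus strand): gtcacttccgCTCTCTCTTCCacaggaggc
Rps7 (chr12:28635911-28635940, minus strand): ctgtccccaCCTCTTTTCTTCCgccacccg
Rplp0 (chr5:115559466-115559495, plus strand): aggaccgcctggTTCTCCTataaaaggcac
Rpl41 (chr10:128549119-128549148, minus strand): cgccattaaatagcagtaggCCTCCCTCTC
Rpl6 (chr5:121204521-121204550, plus strand): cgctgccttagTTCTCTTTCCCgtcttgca
Rps3a1 (chr3:86142623-86142652, minus strand): acgtagacggcgCTCCCCgcccggctcgcg
Rps3 (chr7:99483739-99483768, minus strand): cgcaaaacttcaTTTCCCatgcaaaacttc
Rpl7a (chr2:26910788-26910817, plus strand): cacaaTTCCCTCTTCTTTCTTTCTCCagca
Rps24 (chr14:24490710-24490739, plus strand): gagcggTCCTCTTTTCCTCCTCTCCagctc

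The longest runs were 21 bases in *Rpl7a* and 19 in *Rps24*. Of the 8 members with the lowest log2 fold changes, *Rplp0* (7 bases), *Rps3a1* (6) and *Rps3* (6) did not reach the minimum. In *Rpl7a* and *Rps18* the run spans the annotated start, while in *Rpl19*, *Rpl41*, *Rpl6* and *Rps7* it lies within the 50 bases after it. A run of at least 8 bases was present for 11 of 17 members with the order of LIRKO 1 above and LIRKO 2 and LIRKO 3 below Flox, and for 9 of 11 others with sequence, a difference that was not tested. Of other motifs searched on both strands of the 300 bases, CTTCCG, the core of the sites of ETS family factors, was in 19 of 28 members (67.9%) and 18.8% of all genes. AAGATGG, the core of YY1 sites, was in 7 of 28 (25%) and 7.28%, and TATAAA was in 4 of 28 (14.3%) and 15.7%. CTTCCG can share up to 5 bases with a pyrimidine run. A match is a description of these letters and no evidence of binding.

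Other genes of translation and of the ribosome gave the members a setting, and in none of these lists did a gene pass the test in either direction. The list of elongation factors and other genes with TOP mRNAs (15 of 16 measured) resembled the bright members on LIRKO 1. Its median there was 0.21, with 12 of 15 above the Flox mean, and relative to probe sets of similar level it was 0.22, 0.31 and 0.27 on LIRKO 1, LIRKO 2 and LIRKO 3. *Btf3*, part of the complex that guides nascent chains, read 9.80, 7.79 and 7.82 on LIRKO, against 9.60, 9.43 and 9.63 on Flox (-1.08), and lay at 0.27, -0.92 and -1.07 relative to its level. *Eef2*, which moves the ribosome along the mRNA, read 11.76, 9.78 and 10.41, against 11.69, 11.53 and 11.43 on Flox (-0.90), and lay at 0.22, -0.21 and 0.24. *Eif3f* and *Eif3e*, subunits of an initiation factor, were dimmer and had the highest values of the list, 1.24 and 0.66. As among the ribosomal protein genes, the lowest log2 fold changes of this list were of bright genes and the highest were of dimmer ones.

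Mitochondrial ribosomal proteins, which build the separate ribosome of mitochondria, differed from the cytosolic members in these measures. All 61 genes found by symbol had a median of -0.01 on LIRKO 1, with 30 of 61 above the Flox mean, and of 0.00, -0.45 and -0.50 relative to probe sets of similar level on LIRKO 1, LIRKO 2 and LIRKO 3. *Mrps12* read 8.46, 7.10 and 7.05 on LIRKO, against 8.74, 8.77 and 8.90 on Flox (-1.27), *Mrps17* read 8.95, 7.65 and 7.81, against 9.27, 9.15 and 9.33 (-1.11), and *Mrps18a* and *Mrpl3*, at 1.22 and 0.46, had the highest log2 fold changes. Genes of ribosome biogenesis (33 of 35 measured) had medians of 0.01, -0.31 and -0.21 on the same scale, and *Ncl*, which encodes the nucleolar protein nucleolin, read 8.82, 6.95 and 7.03, against 8.82, 8.55 and 8.66 (-1.08), and lay at 0.17, -1.26 and -1.29 relative to its level. *Rrp1*, a nucleolar protein of large subunit assembly, was at -1.04, and *Polr1b*, a subunit of RNA polymerase I, and *Wdr12*, which takes part in large subunit maturation, were at 0.91 and 0.54. The excess over genes of like level on LIRKO 1 was thus 0.18 in the cytosolic list and within 0.01 of 0 in the mitochondrial and biogenesis lists. Those lists were dimmer, with median Flox levels of 7.66 and 6.98, beside 9.66 for the members. For the 16 members outside the brightest 10% the excess was 0.0004, with 8 above their neighbours and 8 below. The comparison of medians was not tested, and list and level were not separated.

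**Figure D5:**
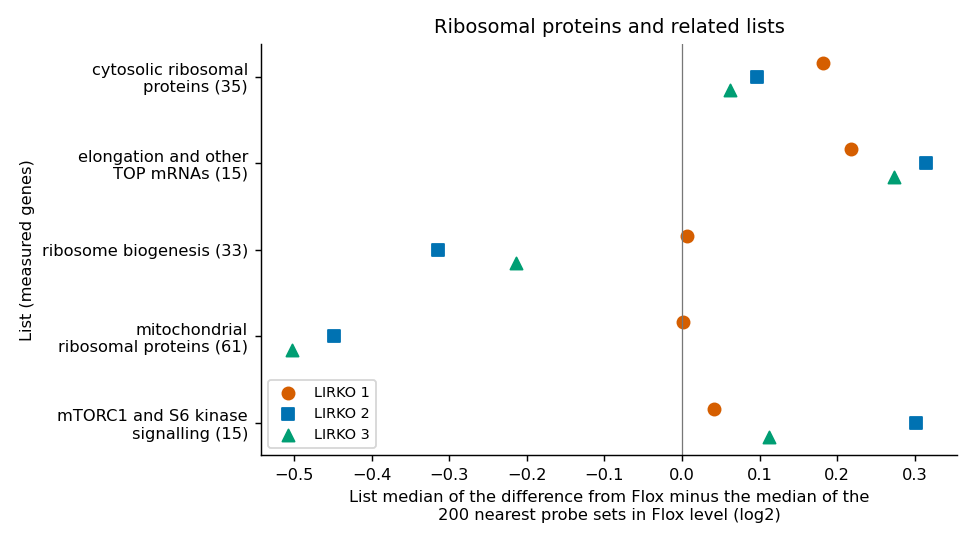
List medians of the difference from the Flox mean after subtracting the median of the 200 other probe sets nearest in Flox level (log2, horizontal axis) on LIRKO 1, LIRKO 2 and LIRKO 3, for the 35 members and 4 related lists. On LIRKO 1 the cytosolic list (0.18) and the elongation list (0.22) lie to the right of the other 3, and the mitochondrial list lies at -0.45 and -0.50 on LIRKO 2 and LIRKO 3.

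The signalling genes between the insulin receptor and the ribosome, those of mTORC1 and S6 kinase (15 of 19 measured), had a median log2 fold change of -0.10, but relative to probe sets of similar level their medians were 0.04, 0.30 and 0.11 on LIRKO 1, LIRKO 2 and LIRKO 3. *Eif4ebp2*, which holds back cap-dependent initiation, read 10.80, 9.62 and 9.82 on LIRKO, against 10.89, 10.83 and 10.82 on Flox (-0.77), and lay at -0.04, 0.19 and 0.14 relative to its level. *Rraga*, a GTPase that brings mTORC1 to the lysosome, had a log2 fold change of -0.60. *Eif4e*, the cap-binding protein, had a log2 fold change of 1.09 by a dim probe set (4.68, 6.14 and 6.17, against 4.53, 4.46 and 4.73), and *Rps6kb2*, a kinase of ribosomal protein S6, was at 0.43. *Ddit4*, an inhibitor of mTORC1 that responds to stress and glucocorticoids, was named after its values were seen, as it varied widely within both groups, at 9.14, 7.99 and 5.93, against 8.33, 7.17 and 6.57, and LIRKO 1 was its highest array. Of the ribosomal genes outside the naming rule of the members, *Fau*, which encodes a small subunit protein as a fusion, was at 0.26, and it read 6.67 on LIRKO 1, below all 3 Flox arrays.

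Of the 13 listed Kupffer cell and macrophage markers, 11 were measured, and their summed level was 81.0 to 91.6 on LIRKO (91.6 on LIRKO 1) and 82.6 to 90.4 on Flox. Their medians on Flox 1, Flox 2 and Flox 3 were -0.53, 0.31 and 0.18, beside 0.03, -0.01 and -0.03 for the members. Among them *Clec4f*, which defines Kupffer cells, read 9.48, 8.31 and 8.83 on LIRKO, against 8.80, 9.26 and 9.31 on Flox. Lymphocyte markers, 11 of 13 measured, had a median of 0.03 on LIRKO 1 and summed levels of 64.4 to 68.0 on LIRKO and 63.9 to 64.7 on Flox, and *Cd3d* read near 4 on all arrays. Endothelial and stellate cell markers (11 of 13) summed to 77.2 to 78.4 on LIRKO and 75.6 to 78.9 on Flox, erythroid markers (7 of 9) to 52.2 to 54.7 and 55.2 to 56.3, and cholangiocyte markers (4 of 6) to 20.6 to 22.6 and 20.8 to 21.6. Hepatocyte markers (13 of 14) summed to 161.1 on LIRKO 1 and to 145.1 and 147.8 on LIRKO 2 and LIRKO 3, against 159.4 to 159.8 on Flox, with a median of 0.03 on LIRKO 1. No marker in these lists passed the test. The scale has no zero, so that the absence of a marker cannot be read from these values.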

How the data were processed

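Liver RNA was hybridized to 6 Affymetrix mouse arrays. The authors used affy and limma in R and deposited log2 values that had been background-corrected, normalized and summarised by RMA (robust multichip averaging), whose version the sources used here do not give. They were used as deposited. Of 12488 probe sets, 66 array controls were left out of the tests. The platform annotation gives 10833 of the other 12422 a single symbol, 396 several and 1193 none. In the current RefSeq gene table, the Entrez IDs of all 35 members carry the same symbol.

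LIRKO and Flox were compared with limma 3.58.1 (lmFit, eBayes, Benjamini-Hochberg, threshold 0.05) in R 4.3.3, as the methods of the study name it. For level, each member was set against the 200 non-member probe sets nearest in Flox mean. The fit was tested on simulated data. Members, lists and tests were chosen with earlier results of these data known. Genes named are *Rplp0* and *Rpsa*, the 5 highest and lowest by log2 fold change and on LIRKO 1, the 3 highest and lowest against similar level, those whose probe sets differ by over 1, the related genes, and the 2 highest and lowest of each pathway list. Others were named after their values were seen.

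Alternatives were 3 normalizations, a filter at the median level, averaging the probe sets of each gene, other member sets, other neighbours, other variance models, array weights, the methods' t-test, Bonferroni adjustment, the replicate number as a block and leaving out arrays. Figures used Python 3.11.15, numpy 2.4.6, pandas 2.3.3 and matplotlib 3.10.9.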

Additional observations from a re-analysis of the deposited data

Results flagged for a closer look

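Control probe sets left out of the tests differed on the arrays where the members read low. The 9 hybridization controls, transcripts of bacterial and phage genes added to the sample, had a median difference from the Flox mean of -0.25 on LIRKO 1, 1.08 on LIRKO 2 (9 of 9 above) and 0.962 on LIRKO 3 (8 of 9 above), with Flox medians between -0.23 and 0.18. The 3 probe sets for 18S ribosomal RNA, which is part of the same small subunit as the Rps proteins, read 2.13 above the Flox mean on LIRKO 2 and 1.38 above it on LIRKO 3 at the median, with 3 of 3 above on each, beside -0.06 on LIRKO 1 and Flox medians between -0.04 and 0.06. Their part in the members' values was not tested.

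The 39 probe sets that list a ribosomal protein symbol among several are not members. They had a median of 0.263 on LIRKO 1, with 34 of 39 above the Flox mean, and of -0.73 and -0.72 on LIRKO 2 and LIRKO 3. Of the 24 among the brightest 10% of all probe sets, all lay above the Flox mean on LIRKO 1, and 22 (91.7%) had LIRKO 1 above and LIRKO 2 and LIRKO 3 below all Flox arrays. Some of these probe sets may read the same transcripts as the members, and they come from the same arrays. They were not taken out of the probe sets that the members were set against for level.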

How the results depend on the processing

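The count of 0 members called stayed 0 under every alternative run except without LIRKO 1 (range over the left-out arrays 0 to 27) and with array weights (30, from weights of 0.0885, 0.275 and 10.7 for LIRKO 1, LIRKO 2 and LIRKO 3). Of all probe sets, 26.7% were called lower and 22.4% higher without LIRKO 1, and 35.5% and 34.5% with array weights. The runs with 0 members called few probe sets of any kind, such as 17 lower and 23 higher of 12422 with cyclic loess. A count of 0 of 35 is therefore near the share over all. The median log2 fold change of -0.43 was 0.023 with cyclic loess, 0.17 on LIRKO 1 alone, and between -0.76 and -0.20 with an array left out. The median against similar level, 0.13, was 0.044 to 0.19 with an array left out, 0.18 on LIRKO 1 alone, 0.069 with 500 neighbours and 0.062 with neighbours by the mean of all arrays. The median on LIRKO 1, 0.17, was 0.24 over probe sets above the median level, 0.22 for plain _at probe sets, 0.22 without the related genes, and, in alternatives added after seeing the data, 0.22 with the probe sets of several symbols and 0.25 against Flox 3 alone. For the 8 members read by probe sets with another suffix it was -0.06, with 3 above the Flox mean. The order of LIRKO 1 above and LIRKO 2 and LIRKO 3 below Flox held for 11 members with cyclic loess, also added.

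Of 26 named members, 7 changed sign with cyclic loess (*Rpl10a* 0.059, *Rpl7a* 0.017, *Rplp0* 0.024, *Rps24* 0.77, *Rps27l* 0.023, *Rps28* 0.56, *Rps4x* 0.27), 3 with quantile normalization (*Rps24* 0.56, *Rps28* 0.37, *Rps4x* 0.15), and *Rps20* with array weights (0.12) and without LIRKO 1 (0.033). With an array left out, *Rps24* ranged between -0.23 (without LIRKO 1) and 0.0089 (without LIRKO 2). On LIRKO 1 alone 19 did so: *Rpl10a* 0.54, *Rpl13a* 0.15, *Rpl19* 0.17, *Rpl32* -0.062, *Rpl38* -0.13, *Rpl7* 0.49, *Rpl7a* 0.46, *Rpl8* 0.31, *Rplp0* 0.46, *Rps13* -0.055, *Rps14* -0.11, *Rps18* 0.32, *Rps24* 0.24, *Rps28* 0.47, *Rps29* -0.027, *Rps3* 0.47, *Rps4x* 0.39, *Rps7* 0.33 and *Rpsa* 0.22. The causes were not tested. With the replicate number as a block, 0 members were called and the median was -0.43. Over all probe sets, deviations of same-numbered arrays correlated at 0.32, 0.40 and 0.09, beside -0.37 to 0.17 for differently numbered arrays. Over the members the values were 0.51, 0.65 and -0.25, beside -0.59 to 0.44. The sources used here do not state that the numbers pair the arrays, and whether they do was not settled. The block took the calls over all probe sets to 11, against 16 without it. The values carry no measure of signal over background, so that dim probe sets could not be judged.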
